A study of Rattus norvegicus with 16 samples.

Results

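The genes described here carry lipid between brain cells: the apolipoproteins Apoa1, Apoe, Apod, Apoc1 and Clu, the lipase Lpl, the receptor Lrp1, and the lipid exporters Abca1 and Abcg1. They were chosen by name, and a gene was taken as the probe that the array files tie to its RefSeq transcript, with the brightest probe used where there were several. Of the 9 genes listed, 8 were matched to a probe, among 26565 genes and unnamed probes tested in all. Lrp1 was not analysed here. All 8 were well above background on all 16 arrays.

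The samples were right hippocampi of 16 male Wistar rats, each hybridised to an Agilent 1-colour array, 4 per group. The study followed hippocampal expression after iron was placed in the right amygdala, a model of epilepsy after head injury in which the animals develop recurrent limbic seizures. At 5 weeks of age a guide cannula was implanted, and 5 days later the rats received 1 µl of fluid at pH 2.2. The Fe groups received 100 mM FeCl3 in saline and were killed 5, 15 or 30 days later (Fe day 5, Fe day 15 and Fe day 30), which the study names the acute, sub-chronic and chronic phases. The control group received saline without iron through the same kind of cannula and was killed at 15 days. Fe day 5 and Fe day 30 therefore differed from the controls in age and time since surgery as well as in iron, and for them these cannot be told apart. All 3 comparisons with control rest on the same 4 control arrays.

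Brain lipoproteins are made locally, mainly by astrocytes, which load apoE and clusterin with cholesterol and phospholipid through the transporters ABCA1 and ABCG1. Neurons and glia take the particles up through lipoprotein receptors such as LRP1, and LPL hydrolyses the triglycerides that lipoproteins carry. After injury, lipid from broken membranes and myelin is cleared and reused along the same route.

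The 75th percentile of the signal on an array ran from 553 to 924, between 74.2% and 81.6% of the spots for transcripts were well above background, and no spot was saturated. Of the marker lists for cell types a hippocampal dissection could hold, 11 of 12 neuronal, 8 of 10 astrocyte, 12 of 13 oligodendrocyte and 14 of 14 microglia and macrophage markers were well above background on all arrays. A marker score, the median over a list's markers of the log2 value minus the marker's control mean, was far from the controls on some arrays. The choroid plexus score was 1.89 in Fe day 5 replicate 2, 3.35 in Fe day 5 replicate 3 and 6.24 in Fe day 30 replicate 3, against -0.18 to 0.24 in the controls. The meninges and fibroblast score was 4.45, 2.53 and 3.27 on those 3 arrays, against -0.07 to 0.04 in the controls. In homogenised tissue, more cells of a type and more RNA per cell cannot be told apart.

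The signal of Apoa1 lay above all 4 controls on every Fe day 15 array, at 2.28 times the control level, but this difference did not pass the test across all genes. Apoe, Clu and Abcg1 had log2 differences from control between -0.20 and 0.14 at every time. The mean of Apoc1 was below the control mean on each Fe day, with Fe and control arrays that overlapped and no call. No gene of the 8 was called in any of the comparisons, where a call is an adjusted p under 0.05 from limma with Benjamini-Hochberg adjustment over all 26565.

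The share of all tested genes called was 0% for Fe day 5, 0% for Fe day 15 and 0.00753% for Fe day 30, each against control. At an unadjusted p under 0.05, 1 of the 8 passed on Fe day 5 (Apoe), 1 on Fe day 15 (Apoa1) and 1 on Fe day 30 (Abcg1), beside 10.3%, 11.5% and 7.77% of all genes. Apoa1 was also the one gene of the 8 whose Fe arrays all lay on one side of the controls, on Fe day 5 and on Fe day 15, and none did on Fe day 30. The same separation was found for 7.84%, 9.84% and 6.25% of all genes. For the mean of the 3 Fe days against control, 0 of the 8 and 0% of all genes were called, and 2 of the 8 (Apoa1 and Abcg1) and 12.8% of all genes had an unadjusted p under 0.05. Counts of this size are near the share over all genes, so that they show nothing particular to these 8.

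The median log2 difference from control over the 8 genes was 0.03 on Fe day 5, -0.01 on Fe day 15 and 0.13 on Fe day 30. Over all genes tested the median was -0.02, 0.00 and -0.01. Of the 8 genes, 4, 4 and 5 lay above their control mean on the 3 days.

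**Figure D1:**
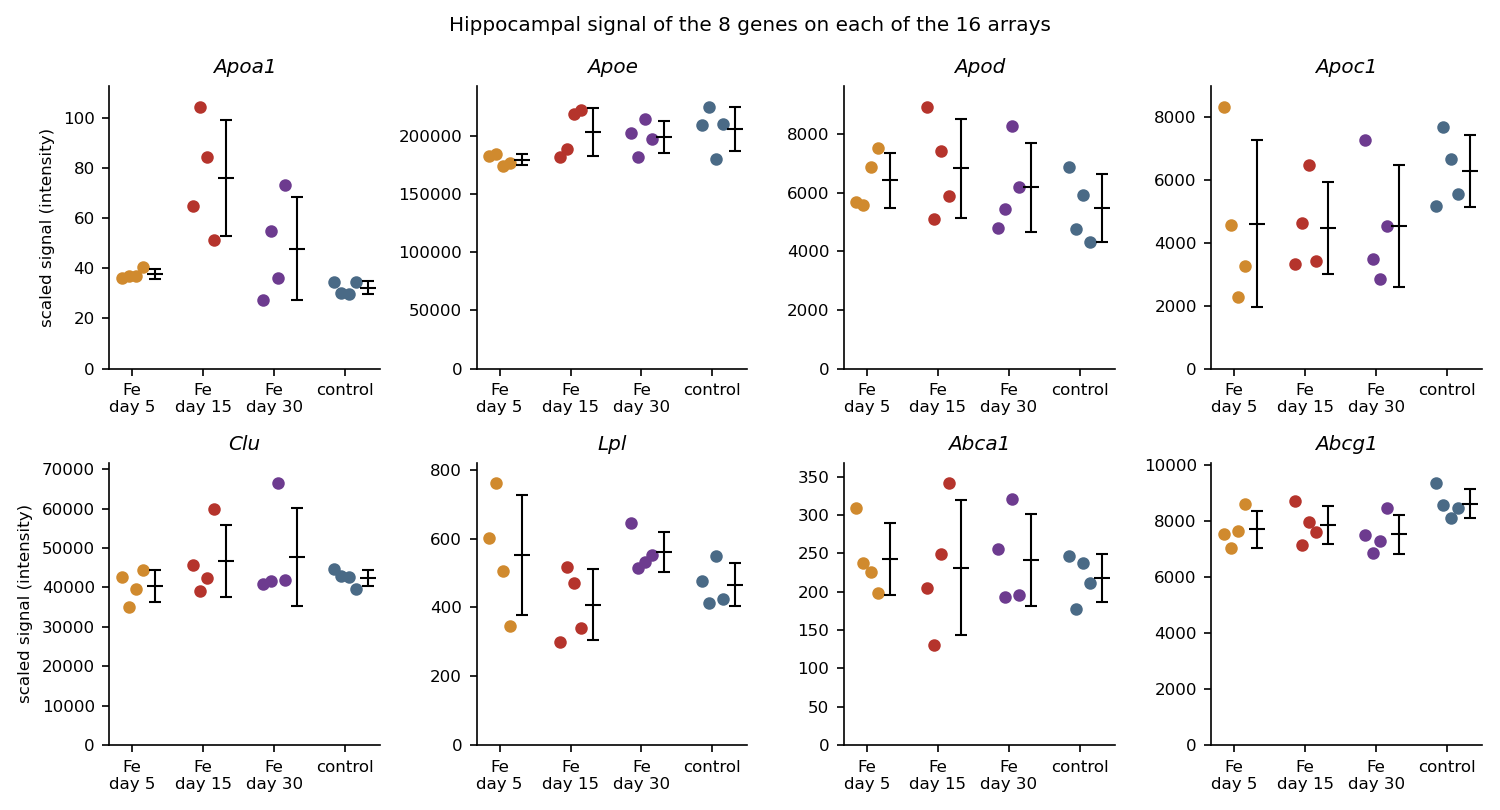
Scaled signal (intensity, linear axis from 0) of the 8 genes, a panel each with its own axis, on the 16 arrays in the groups Fe day 5, Fe day 15, Fe day 30 and control; points are arrays in replicate order and the black marks are the group mean with the SD (n = 4). Apoa1 lies between 51.2 and 104 on the Fe day 15 arrays and between 29.9 and 34.5 on the control arrays. In every other panel each Fe group overlaps the controls.

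Apoa1 encodes the main protein of high-density lipoprotein, made chiefly in liver and gut. Its scaled signal, the intensity after the arrays were brought to a common 75th percentile, was 36.2, 36.8, 37.1 and 40.4 in Fe day 5 hippocampi, 65.0, 104, 84.1 and 51.2 in Fe day 15 hippocampi, and 27.4, 55.0, 35.9 and 73.1 in Fe day 30 hippocampi, against 34.5, 30.3, 29.9 and 34.3 in control hippocampi. The 4 Fe day 15 values lay above every Fe day 5 and control value, the Fe day 5 values lay just above the controls, and of the Fe day 30 values 1 lay below every control and 3 above every control.

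The group means were 76.1 ± 23.1 on Fe day 15 and 32.3 ± 2.52 in controls (SD, n = 4 each). The log2 difference was 1.19 ± 0.26 (SE; 95% interval 0.64 to 1.75), with an adjusted p of 0.147 in limma. An exact two-sided permutation test of the 4 against 4 arrays gave p = 0.0286, the smallest that this design allows. On Fe day 5 the log2 difference was 0.22 ± 0.26 (limma adjusted p = 0.761), and the exact permutation p was again 0.0286. On Fe day 30 it was 0.47 ± 0.26 (limma adjusted p = 0.654), and 0.23 without Fe day 30 replicate 4. By its unadjusted p, Apoa1 ranked 69 of 26565 in the Fe day 15 comparison.

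Apoa1 was not called in any comparison between the Fe days. Its log2 difference between Fe day 15 and Fe day 5 was 0.97 ± 0.26 (limma adjusted p = 0.372), and that between Fe day 30 and Fe day 15 was -0.72 ± 0.26 (limma adjusted p = 0.691). The Fe day 30 minus Fe day 5 difference of Apoa1 was 0.25 ± 0.26. A test of any difference among the 4 groups gave an adjusted p of 0.429 for it (limma F-test), and 0 of the 8 and 0% of all genes were called by that test.

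The probe for Apoa1 was dim, at 7.30 to 12.7 times the lowest signal that counted as well above background on the Fe day 15 arrays and 3.04 to 4.58 times on the control arrays. Between 41.7% and 51.6% of the probes were dimmer on the Fe day 15 arrays and between 36.8% and 38.5% on the control arrays. With array weights in limma, which give less weight to arrays that fit the group means poorly, the log2 difference was 1.33 with an adjusted p of 0.025, and 184 genes were called on that day in place of 0. With normexp background correction and an offset of 50 it was 0.51 (limma adjusted p = 0.392), where the offset added to every spot exceeds the control signal of this probe, and the Fe day 5 difference was -0.10.

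**Figure D2:**
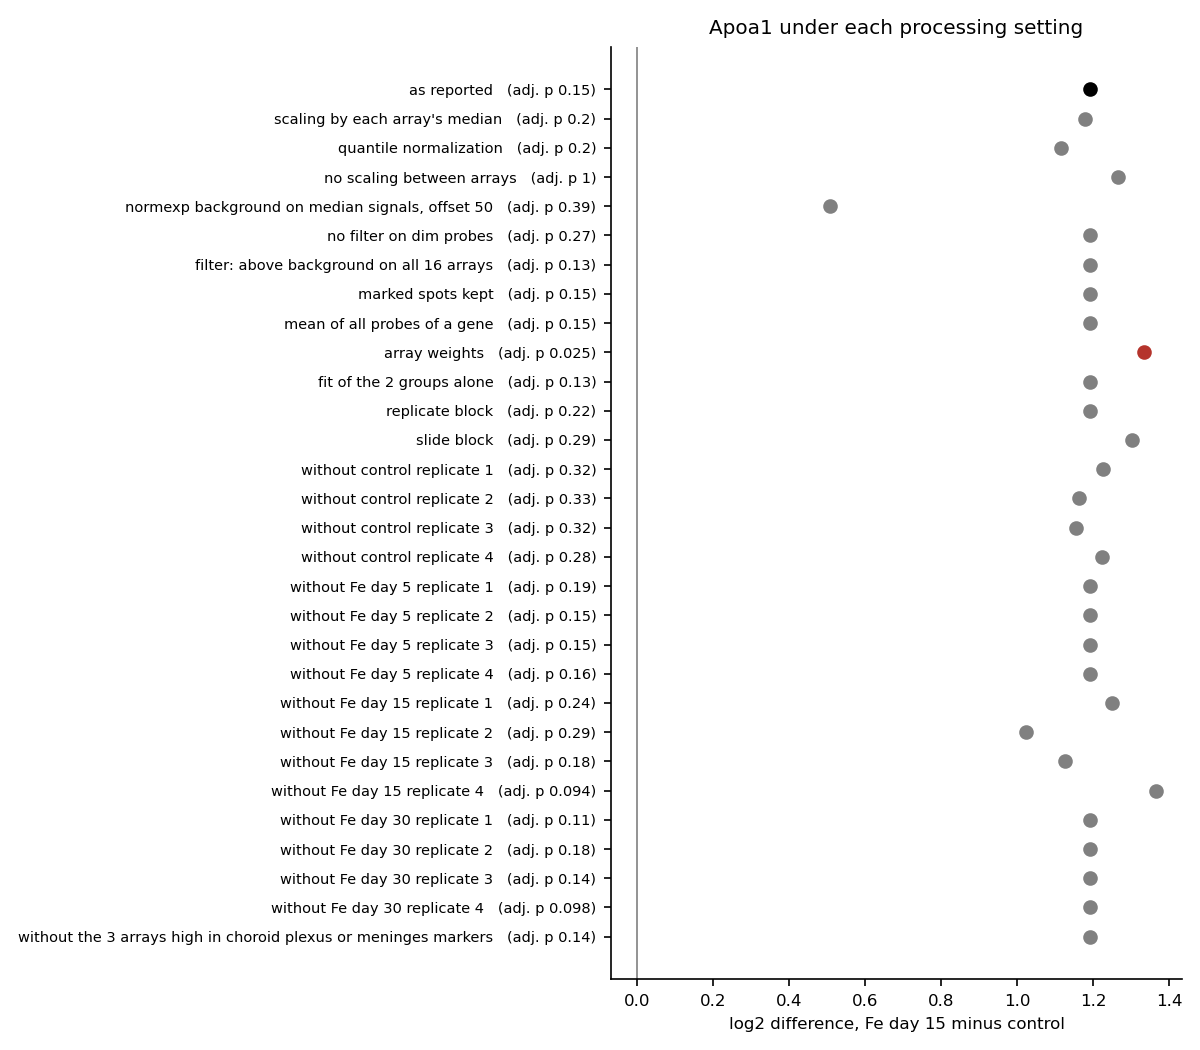
The log2 difference of Apoa1 between Fe day 15 and control (horizontal axis) under the reported processing, at the top in black, and under each of 29 other settings (vertical axis, with the adjusted p of limma). All 29 values are above 0, from 0.51 to 1.37, and the setting in red, array weights, is the one with an adjusted p under 0.05.

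The slide and the place of an array on its slide, as the file headers give them, were not shared evenly. All Fe day 15 arrays sat at position 2, the Fe day 30 arrays at positions 2 and 4, and all control arrays at position 1. For Fe day 15 and for Fe day 30 against control, position and group therefore cannot be told apart, for any gene. The Fe day 5 arrays at position 1 gave 36.2 to 37.1 for Apoa1, and the single one at position 2 gave 40.4. The 2 Fe day 30 arrays at position 2 gave 27.4 and 55.0, and the 2 at position 4 gave 35.9 and 73.1.

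Within a slide that held both groups, the Fe day 15 array exceeded its control by 1.10, 1.80 and 1.29 on the log2 scale in 3 of 3 slides. On Fe day 30 the 2 such differences were 0.25 and 1.29, and on Fe day 5 the single one was 0.22. With the slide as a block the differences of Apoa1 were 0.55, 1.30 and 0.66 on Fe days 5, 15 and 30 (limma adjusted p = 0.904, 0.290 and 0.869). The Fe day 15 arrays with the highest Apoa1, replicates 2 and 3, had choroid plexus scores of 0.20 and 0.54 and blood scores of 1.01 and 1.16. Replicates 1 and 4, with lower Apoa1, had choroid plexus scores of -0.12 and 1.25 and blood scores of -0.12 and 1.48. Fe day 30 replicate 3, with the highest choroid plexus score of all, had an Apoa1 signal of 35.9. The part of choroid plexus and blood in the Apoa1 values was not tested.

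Apoa1 lies in a cluster of apolipoprotein genes, where Apoc3, Apoa4 and Apoa5 are the next protein-coding genes to one side on the rat assembly GRCr8. Apoc3, an inhibitor of lipoprotein lipase, differed by -0.10 ± 0.22 between Fe day 15 and control, and Apoa5, which aids triglyceride clearance, by -0.30 ± 0.36 (limma adjusted p = 0.887 and 0.787). The probe for Apoa4 was above background on 0 of the 16 arrays.

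Apoe encodes the chief apolipoprotein of the brain, released by astrocytes and, after injury, by microglia. Its signal was 182836, 184270.1, 174291 and 177017 in Fe day 5 hippocampi, 181796, 188559, 219068 and 222015 in Fe day 15 hippocampi, and 202237, 182129, 214586 and 197086 in Fe day 30 hippocampi, against 209651, 224818, 179825 and 210264 in control hippocampi. Its highest array was 1.29 times its lowest, the narrowest range of the 8 genes. The 4 Fe day 5 values were close together and lay below 3 of the 4 controls, with control replicate 3 among them.

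Apoe averaged 179603 ± 4731 on Fe day 5 and 206139 ± 18892 in controls (SD, n = 4 each). The log2 difference was -0.19 ± 0.09 (limma adjusted p = 0.477, exact permutation p = 0.0857). On Fe days 15 and 30 the difference was -0.02 and -0.05 (limma adjusted p = 0.940 and 0.889), with intervals of -0.21 to 0.16 and -0.23 to 0.14. The direction on Fe day 5 depended on the scaling: it was 0.09 after quantile normalization and 0.08 without scaling, where the median of all genes was 0.26. The astrocyte marker score ran from -0.11 to 0.04 on the Fe day 5 arrays and from -0.07 to 0.04 on the control arrays.

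Apoc1 encodes a small apolipoprotein that limits the uptake and breakdown of lipoproteins. It gave 8325, 4569, 2268 and 3264 in Fe day 5 hippocampi, 3328, 4634, 6469.7 and 3431 in Fe day 15 hippocampi, and 7273, 3469, 2861 and 4541 in Fe day 30 hippocampi, against 5178, 7698, 6675 and 5558 in control hippocampi. In each Fe group 3 of 4 arrays lay below the lowest control, and the remaining array lay inside or above the control range.

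The log2 differences of Apoc1 were -0.60, -0.53 and -0.54 on Fe days 5, 15 and 30, each with an SE of 0.37 (limma adjusted p = 0.544, 0.589 and 0.700). The Fe day 5 difference was -0.94 without Fe day 5 replicate 1 and -0.31 without Fe day 5 replicate 3, and the Fe day 30 difference was -0.35 without Fe day 30 replicate 3. Without Fe day 5 replicates 2 and 3 and Fe day 30 replicate 3 together, the Fe day 5 difference was -0.25. Its residual SD of 0.56 on the log2 scale exceeded that of 92.4% of all genes. Within slides, 5 of 6 differences from control were below 0, from -1.43 to 0.22. The arrays with the lowest Apoc1, Fe day 5 replicate 3 and Fe day 30 replicate 3, were among those 3 arrays. All 3 stood high in choroid plexus and meninges markers. The other of them, Fe day 5 replicate 2, had an Apoc1 signal of 4569, above replicates 3 and 4 of its group and below replicate 1. The part of these markers in the Apoc1 values was not tested.

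Apoc1 and Apoe are neighbours on the chromosome, followed on the far side of Apoc1 by Apoc4 and Apoc2. Apoc4 differed from control by 0.14, 0.11 and -0.06 on Fe days 5, 15 and 30, with an SE of 0.26. Apoc2, the activator of lipoprotein lipase, differed by 0.33, 0.15 and 0.09, with an SE of 0.30. None of the 4 neighbours was called on any day.

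Apod encodes a lipocalin of glia that binds arachidonic acid and other lipids and is known in rodents for its increase with ageing and injury. Its signal was 5672, 5570.3, 6872 and 7528 in Fe day 5 hippocampi, 8919, 5111, 7401 and 5889 in Fe day 15 hippocampi, and 4789.6, 5448, 8284 and 6199 in Fe day 30 hippocampi, against 6879.6, 4751, 5919 and 4321 in control hippocampi. The groups overlapped at all 3 times, and the 4 highest values came from 2 arrays of Fe day 15 and 1 array each of Fe day 30 and Fe day 5.

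The log2 differences of Apod were 0.24, 0.31 and 0.17 on Fe days 5, 15 and 30, each with an SE of 0.21 (limma adjusted p = 0.668, 0.567 and 0.822), and with array weights the Fe day 30 difference was -0.02. Leaving out each array in turn gave 0.14 to 0.36 on Fe day 5, lowest without control replicate 4, and 0.17 to 0.44 on Fe day 15, lowest without its replicate 1. On Fe day 30 it gave 0.02 to 0.29, lowest without its replicate 3 and highest without control replicate 1, and 0.065 without control replicate 4. Of the 4 arrays highest in Apod, 3 had the 3 highest oligodendrocyte marker scores, which were 0.58 for Fe day 15 replicate 1, 0.71 for Fe day 5 replicate 4 and 0.43 for Fe day 15 replicate 3, against -0.26 to 0.17 in the controls. The fourth, Fe day 30 replicate 3, had an oligodendrocyte score of 0.00 and was the array with the choroid plexus score of 6.24. The part of these markers in the Apod values was not tested.

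Clu encodes clusterin, also called apolipoprotein J, a secreted chaperone made by astrocytes and also by choroid plexus and ependymal cells. It gave 42698, 35038, 39564 and 44374 in Fe day 5 hippocampi, 45781, 38982, 42348 and 59935 in Fe day 15 hippocampi, and 40988, 41725, 66409 and 41882 in Fe day 30 hippocampi, against 44623, 43016, 42529 and 39699 in control hippocampi. A single array of Fe day 15 and a single array of Fe day 30 were high, and the other 14 arrays lay between 35038 and 45781.

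The log2 differences of Clu were -0.08, 0.12 and 0.14 on Fe days 5, 15 and 30, each with an SE of 0.16 (limma adjusted p = 0.880, 0.803 and 0.811). Without scaling between arrays the Fe day 5 difference was 0.20, where the median of all genes was 0.26. Without Fe day 15 replicate 4 the Fe day 15 difference was -0.01, without Fe day 15 replicate 2 it was 0.20, and without Fe day 30 replicate 3 the Fe day 30 difference was -0.03. On both of these arrays all 14 microglia and macrophage markers lay above all 4 controls, with scores of 1.06 and 0.83, against -0.06 to 0.12 in the controls. Their choroid plexus scores were 1.25 and 6.24 and their ependyma scores -0.29 and 1.71. Their astrocyte scores were 0.22 and 0.07, against -0.07 to 0.04 in the controls. Their blood scores were 1.48 and 1.75, against -0.26 to 0.19 in the controls. The part of these cell types in the Clu values was not tested.

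**Figure D3:**
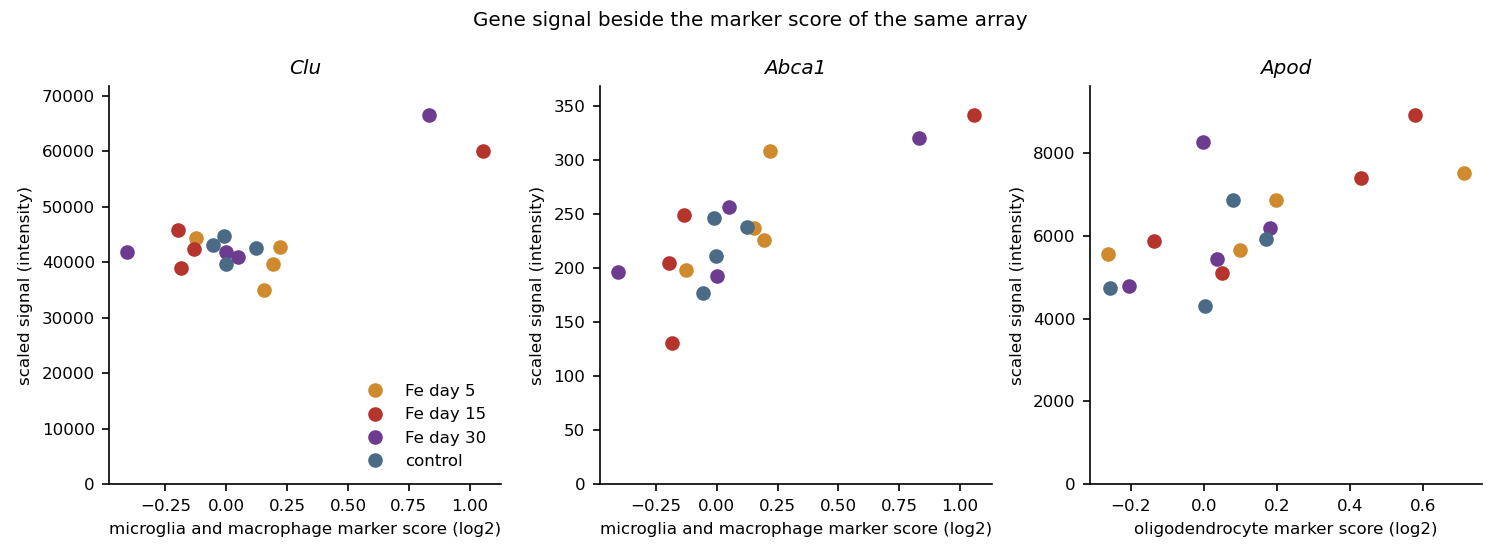
Scaled signal (vertical axes, intensity from 0) of Clu and Abca1 against the microglia and macrophage marker score, and of Apod against the oligodendrocyte marker score (horizontal axes, log2), a point for each of the 16 arrays in the colour of its group. The 2 arrays with scores of 1.06 and 0.83 have the highest Clu and the highest Abca1 signals, and 3 of the 4 highest Apod signals are on the arrays with the 3 highest oligodendrocyte scores.

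Abca1 encodes the transporter that passes cholesterol and phospholipid to lipid-poor apolipoproteins, among them apoA-I and apoE. It gave 309, 237, 226 and 198 in Fe day 5 hippocampi, 204, 130.3, 249 and 341 in Fe day 15 hippocampi, and 256, 193, 321 and 196 in Fe day 30 hippocampi, against 246, 177, 238 and 211 in control hippocampi. The groups overlapped at all times, and the 2 highest signals were on the 2 arrays that were also highest in Clu.

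The log2 differences of Abca1 were 0.14, 0.01 and 0.13, each with an SE of 0.25 (limma adjusted p = 0.853, 0.991 and 0.901). Fe day 15 held both the highest and the lowest array of the 16. Leaving out its replicate 4 gave -0.20 and leaving out its replicate 2 gave 0.26 for that day (limma adjusted p = 0.879 and 0.663). Without Fe day 5 replicate 1 the Fe day 5 difference was 0.02, and without Fe day 30 replicate 3 the Fe day 30 difference was -0.02. With the slide as a block the differences were -0.03, -0.14 and 0.18.

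Abcg1 encodes the transporter that exports cholesterol to particles that already hold lipid. It gave 7524, 7043, 7619 and 8613 in Fe day 5 hippocampi, 8716, 7116, 7969.9 and 7592 in Fe day 15 hippocampi, and 7502, 6834, 7267 and 8461 in Fe day 30 hippocampi, against 9330.0, 8557, 8103 and 8462 in control hippocampi. In each Fe group 3 of 4 arrays lay below the lowest control.

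Abcg1 averaged 7516 ± 688 on Fe day 30 and 8613 ± 516 in controls (SD, n = 4 each). The log2 differences were -0.16, -0.14 and -0.20 on Fe days 5, 15 and 30, each with an SE of 0.09 (limma adjusted p = 0.503, 0.561 and 0.636). For the mean of the 12 Fe arrays against the 4 controls the difference was -0.17 ± 0.07 (limma adjusted p = 0.364), and an exact permutation test gave p = 0.0225, where the smallest possible is 0.000549. Without Fe day 15 replicate 2 the Fe day 15 difference was -0.09. With the slide as a block the 3 differences were -0.09, -0.09 and -0.10. Without scaling between arrays the Fe day 5 difference was 0.12, where the median of all genes was 0.26.

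Lpl encodes lipoprotein lipase, which in brain is expressed by neurons and by activated microglia. Its main probe, printed in 10 spots, gave 601, 761, 506 and 345 in Fe day 5 hippocampi, 300.5, 518, 471 and 341 in Fe day 15 hippocampi, and 646, 516, 533 and 553 in Fe day 30 hippocampi, against 477, 412, 551 and 424 in control hippocampi. The Fe day 5 values spread to both sides of the control range, 2 of the Fe day 15 values lay below it and 2 within it, and the Fe day 30 values lay at or above the upper part of the control range.

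The log2 differences of Lpl from control were 0.20, -0.22 and 0.27, each with an SE of 0.22 (limma adjusted p = 0.741, 0.723 and 0.734). Leaving out each array in turn gave 0.03 to 0.41 on Fe day 5, lowest without its replicate 2 and highest without its replicate 4, and -0.35 to -0.08 on Fe day 15, lowest without its replicate 2 and highest without its replicate 1. Between the Fe days, Fe day 30 exceeded Fe day 15 by 0.49 ± 0.22 (limma adjusted p = 0.744, exact permutation p = 0.0571). A second Lpl probe gave 0.15, -0.37 and 0.12 against control and 0.49 between Fe day 30 and Fe day 15. The array with the highest Lpl, Fe day 5 replicate 2, had a meninges and fibroblast score of 4.45, and without the 3 arrays high in choroid plexus and meninges markers the Fe day 5 difference was -0.02. Fe day 15 replicate 4, with a microglia and macrophage score of 1.06, had an Lpl signal of 341. Fe day 30 replicate 3, with a score of 0.83, had an Lpl signal of 533. The part of these markers in the Lpl values was not tested.

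**Figure D4:**
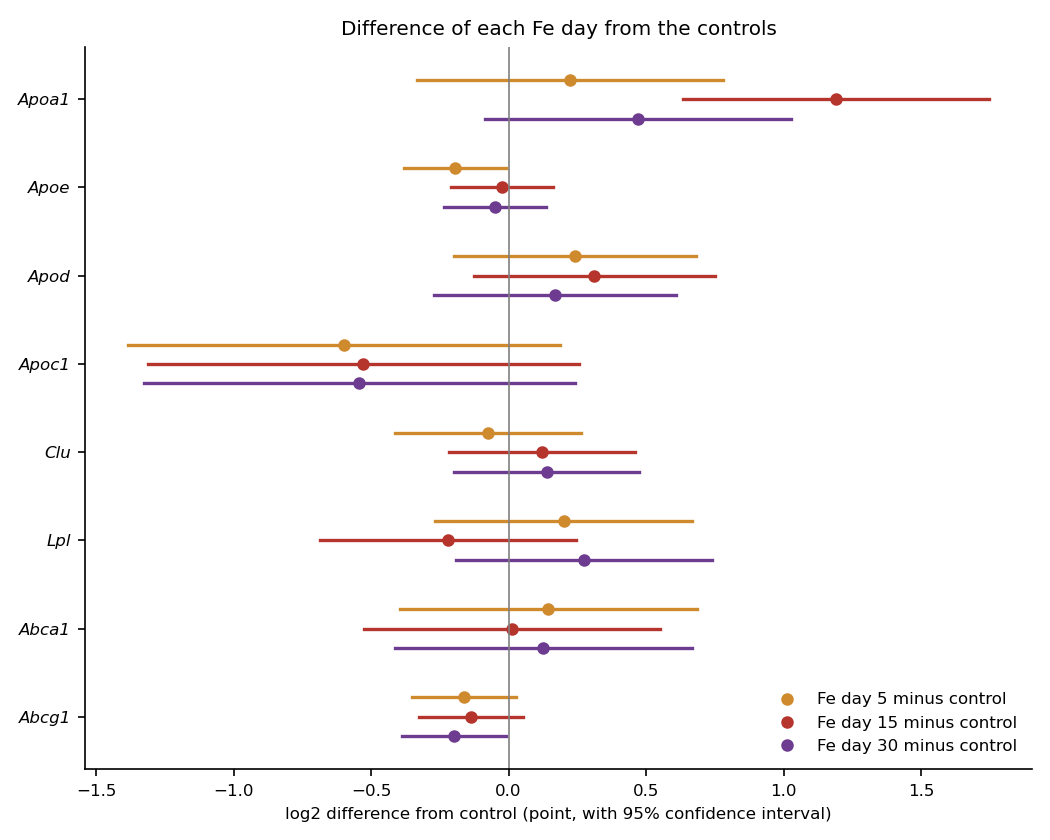
Log2 difference from control (horizontal axis; points, with lines for the 95% confidence interval) of the 8 genes on Fe day 5, Fe day 15 and Fe day 30, from the fit over all 16 arrays. The interval of Apoa1 on Fe day 15, 0.64 to 1.75, is the one farthest from 0, and those of Apoe on Fe day 5 and of Abcg1 on Fe day 30 end just below 0.

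Between the Fe days, 0 of the 8 genes and 0% of all genes were called for Fe day 15 against Fe day 5, 0 of 8 and 0% for Fe day 30 against Fe day 5, and 0 of 8 and 0% for Fe day 30 against Fe day 15. At an unadjusted p under 0.05 the counts were 1 (Apoa1), 0 and 2 (Apoa1 and Lpl) of the 8, beside 7.2%, 2.96% and 6.49% of all genes.

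Across the 16 arrays the 8 genes form 28 pairs, and no pair had a correlation past an adjusted p of 0.05 by permutation. Genes with a pattern close to a member are given as a description over the 16 arrays, which share the scaling and the sample of tissue, by Pearson's r among 9580 other named genes. Casp2, a caspase, was nearest to Apoa1 with r = 0.89, and Rpl35, a ribosomal protein gene, to Apoe with r = 0.86. Selenom was nearest to Apoc1 with r = 0.86, Tmod4 to Apod with r = 0.91 and Tpgs1 to Abcg1 with r = 0.86. The 2 genes nearest to Clu were Ctsd, a lysosomal protease, and Cst3, a secreted protease inhibitor, with r = 0.92 and 0.91. By ranks (Spearman's rho) the values for these 2 genes were lower, 0.75 and 0.78. Fmo4 was nearest to Abca1 with r = 0.85, and Gtsf2 to Lpl with r = 0.88. By ranks, Fmo4 stood at 0.72, Casp2 at 0.80, Gtsf2 at 0.82, Selenom at 0.83, Tpgs1 at 0.84, Rpl35 at 0.86 and Tmod4 at 0.89.

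Around these genes, 89 others of lipid transport were listed, of which 49 were tested, 15 had a probe that did not pass the filter on dim signals and 25 were not matched to a probe. None of the 49 was called on Fe day 5, 15 or 30, beside 0%, 0% and 0.00753% of all genes. At an unadjusted p under 0.05, 3 were higher and 4 lower on Fe day 5, 2 higher and 6 lower on Fe day 15, and 2 higher and 2 lower on Fe day 30. These make 14.3%, 16.3% and 8.16% of the 49, beside 10.3%, 11.5% and 7.77% of all genes. Their median log2 differences were -0.05, -0.05 and 0.03.

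Mylip, which encodes a ubiquitin ligase that sends lipoprotein receptors for breakdown, was the only gene of these lists with an unadjusted p under 0.01. It gave 895, 1083, 994 and 1050.5 in Fe day 15 hippocampi, against 1276, 1245, 1179 and 1279 in control hippocampi. All 4 Fe day 15 values lay below all 4 control values, where 9.84% of all genes had their Fe day 15 arrays on one side of the controls. The log2 difference was -0.31 ± 0.09 on Fe day 15 (limma adjusted p = 0.240), -0.12 on Fe day 5 and -0.06 on Fe day 30. Without scaling the Fe day 5 and Fe day 30 values were 0.15 and 0.04, where the median of all genes was 0.26 and 0.08.

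The other genes at an unadjusted p under 0.05 are named after their values were seen. Among receptors and their adaptors these were Reln, the extracellular ligand of the receptors VLDLR and apoER2, Dab1, the adaptor that those receptors signal through, and Lrp2, the receptor megalin. Reln differed by 0.31, 0.24 and 0.39 on Fe days 5, 15 and 30 with an SE of 0.14 (limma adjusted p = 0.480, 0.524 and 0.630). Dab1 differed by -0.35, -0.31 and -0.27 with an SE of 0.12 (limma adjusted p = 0.473, 0.376 and 0.637). On Fe day 5 and Fe day 15 all Dab1 values lay below the controls, at 1290 to 1779 and 1538 to 1893, against 1985 to 2164 in the controls, a separation found for 7.84% and 9.84% of all genes on those days.

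The receptor Vldlr itself differed by -0.11, -0.16 and -0.21 on Fe days 5, 15 and 30, with an SE of 0.10. Lrp2 differed by 0.71 ± 0.32 on Fe day 15 (limma adjusted p = 0.423). Neither receptor passed the test on any day.

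Lipa, the lysosomal acid lipase that frees cholesterol from endocytosed lipoproteins, differed by 0.36, 0.32 and 0.35, with an SE of 0.15 (limma adjusted p = 0.474, 0.438 and 0.633). Its signal was 1959, 2077, 1850.2 and 2492 in Fe day 15 hippocampi and 2255, 2109, 2405 and 1799 in Fe day 30 hippocampi, against 1623, 1673, 1712 and 1666 in control hippocampi. Both of these Fe groups lay above all controls, as 9.84% and 6.25% of all genes lay to one side of them on Fe days 15 and 30, and Fe day 5 overlapped them in 1 array.

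Of the nuclear receptors of lipid transport, Nr1h2 and Nr1h3, the liver X receptors that drive Abca1, Abcg1 and Apoe, differed on Fe day 15 by -0.06 ± 0.11 and 0.12 ± 0.28. Rxrb, a partner of theirs, differed by -0.22 on Fe day 5 and -0.23 on Fe day 30, with an SE of 0.09 (limma adjusted p = 0.473 and 0.630). Over the 29 other settings its Fe day 15 difference ran from -0.10 to 0.01. Rxrg showed the widest differences of the 49 genes, 1.58, 1.41 and 1.52 with an SE of 0.82 (limma adjusted p = 0.494, 0.522 and 0.650). Its signal ranged from 302 to 3281 on the Fe day 5 arrays, against 251 to 684 on the control arrays, and the groups overlapped at all times.

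The remaining genes at an unadjusted p under 0.05 were Lipe, higher on Fe day 5 with a difference of 0.26, and Ppard, lower on that day with -0.28. Abcg5 gave -0.55 on Fe day 5 and -0.50 on Fe day 15. Abcg4 gave 0.24, and Srebf2, Osbp and Apool gave -0.28, -0.18 and -0.25, all on Fe day 15. Their adjusted p in limma ran from 0.347 to 0.473. The probes for Abcg4, Ppard, Abcg5 and Lipe were dim, with mean scaled signals of 23.5, 34.7, 47.1 and 65.0 in the controls. The control mean of Apoa1 was 32.3.

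**Figure D5:**
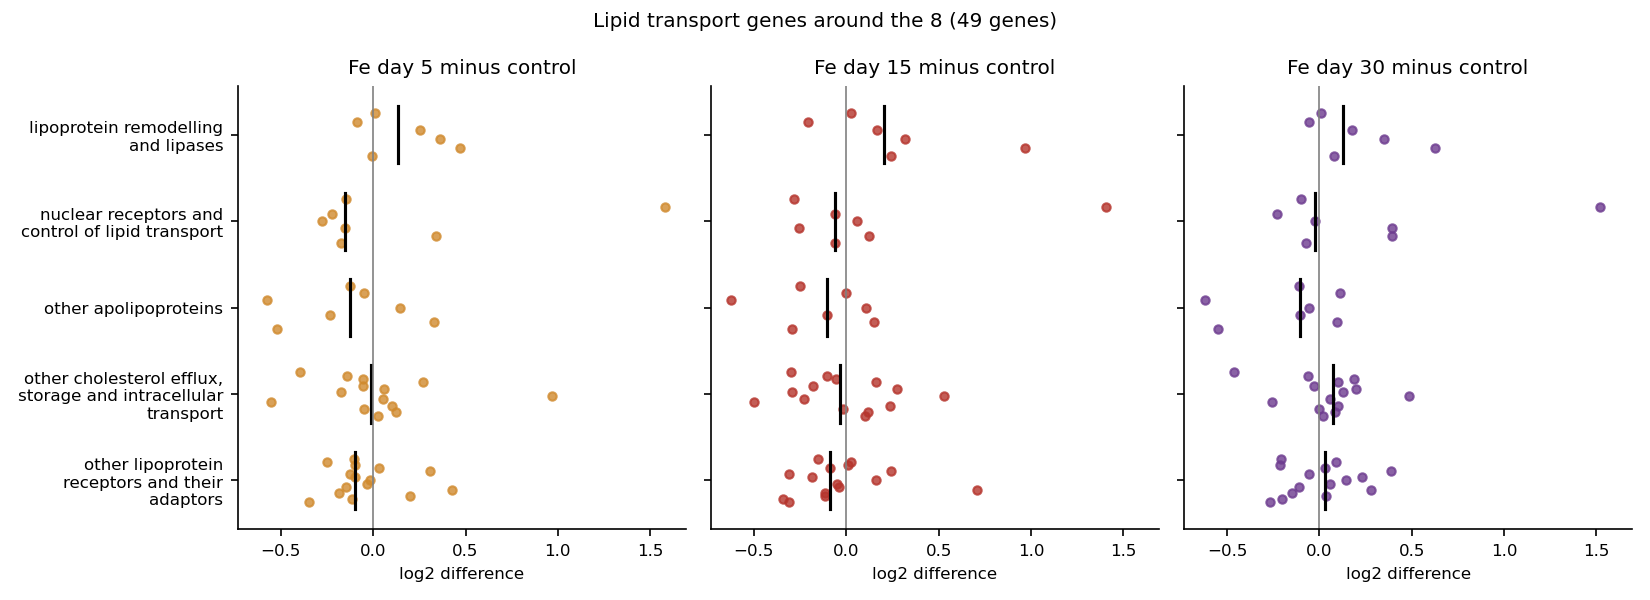
Log2 differences from control (horizontal axes) of the 49 other lipid transport genes on Fe day 5, Fe day 15 and Fe day 30, in 5 lists (vertical axis); points are genes and black bars the median of a list. The points spread to both sides of 0 in most lists, from -0.62 to 1.58, with Rxrg as the gene farthest to the right.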

How the data were processed

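Total RNA of 16 hippocampi was labelled with Cy3 and read with Agilent Feature Extraction 9.5, per the submitters' processing notes. The deposited files give, per the file headers, a processed signal per spot, a background-subtracted intensity on a linear scale; the deposited series table of intensity values equals it in 100% of entries at a relative tolerance of 1e-06. Here the processed signal was put on a log2 scale from the deposited intensity, and each array's 75th percentile was subtracted. Scaled signal is the same value times 732, the geometric mean of those percentiles. Non-uniform and outlier spots were dropped, spots of a probe averaged, and a probe stayed in when 1 group or more had it well above background throughout. RefSeq accessions gave symbols through a GRCr8 gene table, for 36.1% of 26565 features. A one-way model of the groups was fitted to the 16 arrays with limma 3.58.1 (R 4.3.3; 12 residual degrees of freedom), two-sided, with Benjamini-Hochberg adjustment over all features; scripts were tested on simulated data. P-values measure the spread between these rats, and having only 4 arrays per group limits the precision.

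The genes, lists and settings were chosen with earlier results of these data known. By rule, genes named outside the 8 are called ones, list genes with an unadjusted p under 0.01, and the nearest genes by correlation. Other list genes with an unadjusted p under 0.05 were named after their values were seen, as was Rxrg for its wide differences. Vldlr, Nr1h2, Nr1h3 and the chromosome neighbours of Apoa1, Apoe and Apoc1 were named outside these rules. Same-numbered replicates did not deviate together (correlation -0.13 to 0.20), so the reported fit used no replicate block. The slide, which did not follow the replicate numbers, was a block only among the alternatives. Alternatives were other scalings, background corrections, filters, probe choices, array weights, blocks and left-out arrays. The files hold no mean signal, so normexp used the median signal. One item of the lists is not reported here.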

Additional observations from a re-analysis of the deposited data

Results flagged for a closer look

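Clu in Fe day 30 replicate 3, at a scaled signal of 66409, lay far from the other 3 arrays of its group, which were at 40988, 41725 and 41882. The gap to the nearest of them was 0.955 of the range of the group, above Dixon's 95% critical value for 4 samples. Each of the 8 genes was examined in each of the 4 groups, 32 in all, and chance alone marks about 1 such group in 20. On the same array all 14 microglia and macrophage markers lay above every control, and the choroid plexus score was 6.24. The part of these markers in the value was not tested.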

How the results depend on the processing

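Over the 29 other settings (28 for the mean of the Fe days and for the F-test), the count of the 8 genes called in each comparison was 0, except that array weights called 1 on Fe day 15 (Apoa1, 1.33). For Apoa1 on Fe day 15 the difference ran from 0.51 to 1.37, with limma adjusted p from 0.025 to 1.00, and leaving out each array in turn gave 1.02 to 1.37. The median over the 8 genes moved in some settings. Without scaling it was 0.31 on Fe day 5 and 0.22 for the mean of the Fe days, where the median of all genes was itself 0.26 on Fe day 5. With array weights it was -0.00913 on Fe day 30, and it was -0.0262 on that day without Fe day 5 replicates 2 and 3 and Fe day 30 replicate 3, whose choroid plexus and meninges scores were high. Leaving out each array in turn gave -0.10 to 0.11 on Fe day 15, the highest without Fe day 15 replicate 2, and -0.0262 to 0.21 on Fe day 30, the lowest without Fe day 30 replicate 3. The replicate numbers are shared by the groups, and with the replicate block Apoa1 gave 1.19 on Fe day 15 with a limma adjusted p of 0.222, and 0 of the 8 genes were called. The left-out arrays show which arrays the median depended on, and not why. The cause of these shifts was not tested. The dim signal of the Apoa1 probe, though marked well above background on all 16 arrays, limits the precision of its fold change.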
